A study of Saccharomyces cerevisiae with 6 samples.

Results

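The response to rapamycin was compared between *S. cerevisiae* cells that lack the phosphatase gene *PTC6* and wild type cells. Wild type BY4741 and the *ptc6* strain derived from it both carry the *his3Δ1 leu2Δ met15Δ ura3Δ* markers, were grown in YPD at 28 °C, and were exposed for 1 h to 200 ng/ml rapamycin or to a mock treatment. Each strain was measured on 2 arrays of spotted, PCR-amplified ORFs. Treated and mock-treated RNA were labelled with different dyes, and the dyes were exchanged on the second array. In both strains Cy3 marked the treated RNA on array 1, and Cy5 did on array 2. The 2 arrays of a strain were taken as 1 biological replicate, because no source used here states that they came from separate cultures. No test was therefore made between the strains, and precision is limited by having 2 arrays for each strain. The sources used here do not say which of the study's *ptc6* null alleles was hybridized. A further strain, *ptc1 ptc6*, lacks the phosphatase gene *PTC1* as well, and its values are given only beside the others.

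The value of an ORF is the log2 ratio of rapamycin over mock, so that 1 is a 2-fold induction and -1 a 2-fold repression. The difference is the mean of the 2 *ptc6* arrays minus the mean of the 2 wild type arrays. A positive difference therefore means less repression or more induction in *ptc6* cells. ORFs were included when they had a value on all 4 arrays, and ORF identifiers starting with YL or YM were left out, which left 2813 of the 6212 ORFs listed. Of 3323 ORFs with 4 values, 510 were left out in this way. Among ribosomal protein ORFs, 9 of 16 with a YL or YM identifier were repressed in wild type cells, with values from -4.63 to 0.91. All 100 of the others were repressed.

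Rapamycin inhibits TORC1, the kinase complex that drives ribosome production in rich medium and holds back genes for the use of poor nitrogen sources and for stress defence. When TORC1 is inhibited, yeast represses the genes of ribosomal proteins and of the nucleolar factors that assemble ribosomes, and it induces permeases and enzymes for scavenging nitrogen. Ptc6 is a mitochondrial protein phosphatase of the PP2C type, known for acting on the pyruvate dehydrogenase complex and for a role in the degradation of mitochondria by autophagy.

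*PTC6* itself was measured at 1.11 and 0.62 in wild type cells, whereas both *ptc6* arrays lacked a value for it. The BY4741 markers *LEU2* and *MET17* (*MET15*) had no value on any of the 4 arrays. *HIS3*, of which the strain keeps a part, had values of 1.82 and 2.10 in wild type compared with 1.19 and 1.64 in *ptc6* cells. *URA3*, which the strain lacks, was nevertheless listed on all 4 arrays, at 0.45 and 0.72 in wild type compared with 0.65 and 0.13 in *ptc6* cells. Of the markers of mating type a, *STE2*, *BAR1* and *MFA2* had values, while *STE3* and the alpha-factor genes of the opposite mating type had none. The median log2 ratio of the included ORFs lay between -0.01 and 0.13 on the 4 arrays. The difference between the arrays of a strain had an SD of 0.36 in wild type and 0.31 in *ptc6* cells across ORFs.

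Most ORFs that responded past 2-fold in wild type cells responded in the same direction and less strongly in *ptc6* cells. In wild type cells 398 ORFs were induced past 2-fold (14.1% of those compared) and 520 were repressed past 2-fold (18.5%). In *ptc6* cells these counts were 311 (11.1%) and 412 (14.6%). No ORF was past 2-fold in opposite directions in the 2 strains. The *ptc6* mean was closer to 0 for 499 of the 520 repressed ORFs and for 346 of the 398 induced ORFs. The median share of the wild type log2 response that *ptc6* cells retained was 0.755 for repressed and 0.811 for induced ORFs. Choosing the responders on one wild type array and measuring the share against the other gave 0.791 and 0.742 for repressed and 0.837 and 0.841 for induced ORFs. The 1895 ORFs that were not past 2-fold in wild type cells had a median difference of 0.02, against 0.55 for repressed and -0.30 for induced ORFs. A smaller response of the cells and a narrower range of the *ptc6* arrays cannot be told apart from these ratios.

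**Figure D1:**
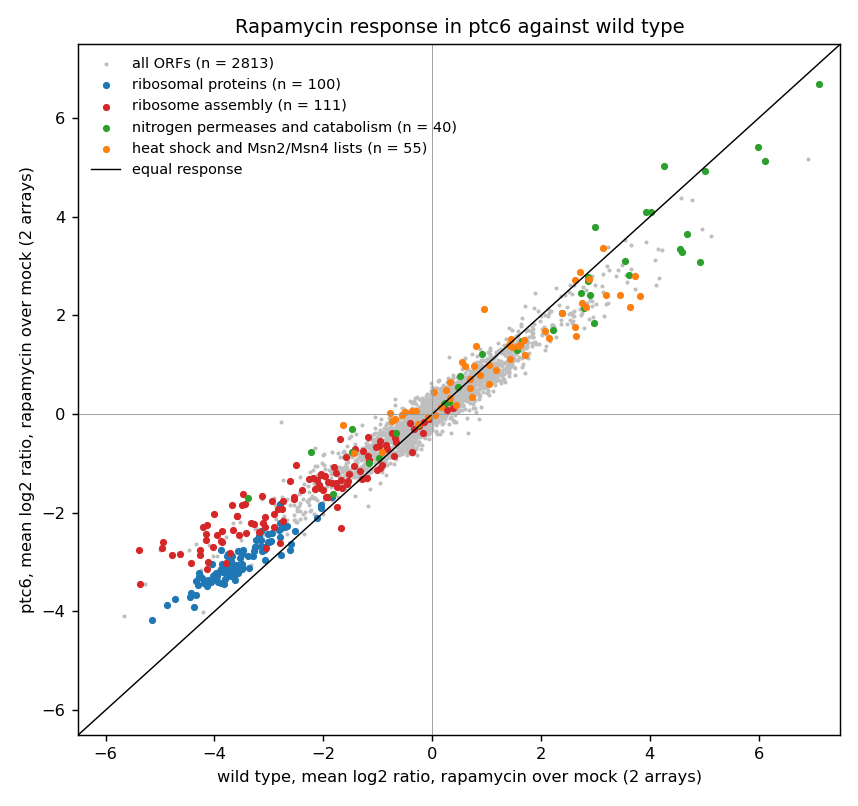
Mean log2 ratio (rapamycin over mock) of each ORF in wild type cells (horizontal axis) and *ptc6* cells (vertical axis), each the mean of 2 arrays, with the line of equal response. Grey points are all 2813 ORFs and coloured points are members of gene lists. Ribosome assembly ORFs lie farther above the line than ribosomal protein ORFs with the same wild type value, and most strongly induced ORFs lie below it.

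The loss was uneven between functions. The difference exceeded 1 for 77 ORFs, which is 2.74% of those compared, and 76 of these were repressed in wild type cells. It was below -1 for 18 ORFs, or 0.64%, of which 17 were induced in wild type cells. All of these 95 ORFs had the same sign on both pairs of arrays with the same dye orientation, 67 were past 2-fold on both pairs, and 94 had no overlap between the 2 wild type and the 2 *ptc6* values. Single arrays of the same strain differed by more than 2-fold for 38 ORFs in wild type and for 11 in *ptc6* cells, while single arrays of different strains did so for 112 to 160. Across the 2813 ORFs, the differences on the 2 pairs correlated with r = 0.689. The points share the RNA of each strain and ORFs are not independent replicates. At the limit of 1, *NOP14* and *PUF6* lay just inside at 1.010, and *RPS9B* and *RPL21A* just outside at 0.995. At -1, *CPS1* lay inside at -1.020 and *YNL058C* outside at -0.985.

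Among the 77 ORFs higher in *ptc6* cells, 38 (49.4%) belonged to the ribosome assembly lists, which held 4.94% of all ORFs compared. For this count, these lists include those of the RNA exosome and of regulators of ribosome genes. Only 2 were ribosomal protein ORFs, which made up 3.55% of all. All 100 ribosomal protein ORFs were among the 520 repressed in wild type cells. The 18 ORFs lower in *ptc6* cells included 5 from the nitrogen lists and 5 from the stress lists (27.8% each), which held 2.56% and 3.16% of all ORFs. Leaving out 1 array gave 22 to 35 ORFs lower in *ptc6* cells in place of 18. The list shares above are of all 2813 ORFs, of which 1895 were not past 2-fold in wild type cells. Lists rich in responding ORFs have larger shares among the 520 repressed or 398 induced ORFs.

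**Figure D2:**
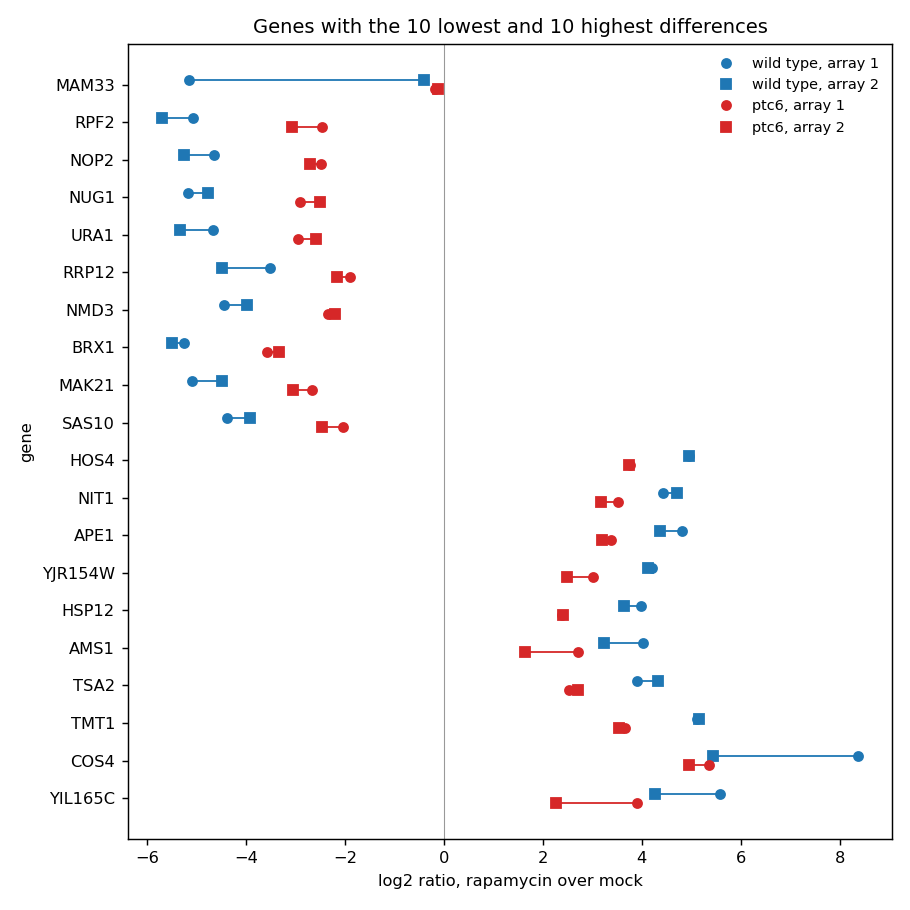
Log2 ratio (rapamycin over mock) on each of the 4 arrays for the ORFs with the 10 highest and the 10 lowest differences among those whose values do not overlap; blue is wild type, red is *ptc6*, circles are array 1 and squares array 2. *MAM33* is the only one of these whose wild type arrays lie more than 4 log2 units apart, and *COS4* the next widest.

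Several of the highest differences belonged to factors that assemble the large ribosomal subunit. *RPF2*, which brings the 5S rRNA into the precursor of the large subunit, had log2 ratios of -5.07 and -5.69 in wild type compared with -2.46 and -3.07 in *ptc6* cells. Both *ptc6* values were far above both wild type values, and the difference of 2.62 ranged from 2.00 to 3.23 over the 4 pairs of arrays. *NOP2*, a methyltransferase for the rRNA of the large subunit, stood at -4.64 and -5.25 in wild type compared with -2.48 and -2.71 in *ptc6* cells. *NUG1*, a nuclear GTPase, had -5.18 and -4.76 against -2.90 and -2.51. In all 3 genes *ptc6* cells kept a little over 0.5 of the wild type log2 response, and none of the values overlapped.

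*NMD3*, the adaptor that exports the large subunit from the nucleus, changed from -4.44 and -3.98 in wild type to -2.35 and -2.21 in *ptc6* cells. *MAK21* and *BRX1*, which act in early and intermediate precursors of this subunit, had differences of 1.92 each. *BRX1* remained at -3.57 and -3.33, so it was still among the strongly repressed genes of *ptc6* cells. *LSG1*, a cytoplasmic GTPase that releases Nmd3, had -4.19 and -2.76 in wild type compared with -1.51 and -1.71 in *ptc6* cells. Its retained share of 0.463 placed it among the strongly weakened responses, meaning a share of 0.5 or less, but its wild type arrays differed by more than 1 log2 unit.

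Over the 54 measured members of the 60S assembly list, the median moved from -2.38 in wild type to -1.57 in *ptc6* cells. The median difference was 0.79, against 0.04 for all 2813 ORFs. Both *ptc6* values lay above both wild type values in 41 members (75.9%), compared with 29.2% of all ORFs, and below in 4 (7.41%), compared with 18.2% of all. Among all ORFs repressed in wild type cells 77.3% were separated above, so the share of this list was close to that of repressed ORFs. The difference exceeded 1 in 19 members, against 2.74% of all ORFs. Of 47 members repressed in wild type cells, 35 retained 0.75 or less of the response, compared with 48.3% of all repressed ORFs. At the other end of the list, *RSA1*, which takes part in assembling snoRNPs and large subunits, had -0.40 and -0.34 in wild type compared with -1.01 and -0.52 in *ptc6* cells.

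The machinery for the small subunit showed the same pattern. *RRP12*, which acts in the export and maturation of the small subunit, had -3.52 and -4.49 in wild type compared with -1.90 and -2.16 in *ptc6* cells. *SAS10*, a component of the small subunit processome, the large particle that forms on the nascent rRNA, had -4.38 and -3.91 against -2.04 and -2.47. Neither gene's values overlapped. Across 45 members of this list the median difference was 0.78, and 16 exceeded 1, against 2.74% of all ORFs. Values were separated above wild type in 35 (77.8%) and below in none. That share above was 29.2% in all ORFs and 77.3% in all repressed ORFs, so it was close to that of repressed ORFs. Of 36 repressed members, 27 retained 0.75 or less, compared with 48.3% of all repressed ORFs. *FAL1*, an RNA helicase, was the lowest of the list at -0.79 and -0.61 in wild type compared with -0.98 and -0.73 in *ptc6* cells, and its values overlapped.

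Transcription and modification of rRNA were less uniform. *RPA43*, a subunit of RNA polymerase I, had -5.45 and -5.09 in wild type compared with -3.28 and -3.61 in *ptc6* cells. *RPA14*, another subunit, had the lowest difference of its list, -0.42, with values that met at -0.17 in both strains. The 9 RNA polymerase I ORFs had a median difference of 0.51 and the 13 RNA polymerase III ORFs of 0.18. *MTR4*, the helicase of the nuclear exosome, had -3.69 and -3.62 against -2.02 and -2.38, whereas the exosome subunit *RRP43* moved from -0.41 and -0.33 to -0.91 and -0.68. In the snoRNP list, *SRP40*, a nucleolar chaperone of these particles, was repressed more in *ptc6* cells, at -2.44 and -2.19, than in wild type cells, at -1.81 and -1.53.

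Ribosomal protein genes lost a smaller and more even part. All 60 measured ORFs of the large subunit and all 40 of the small subunit were repressed past 2-fold in wild type cells, and their median log2 ratios moved from -3.61 to -3.04 and from -3.65 to -3.09. The median differences were 0.60 and 0.53. The median retained shares were 0.828 and 0.843, and only 1 ORF in each list retained 0.75 or less. Values were separated above wild type in 52 (86.7%) and 30 ORFs (75%), against 77.3% of all repressed ORFs, and below in none. The difference exceeded 1 for *RPL19B*, at -4.01 and -3.75 in wild type compared with -2.65 and -2.85 in *ptc6* cells, and for *RPL16A*.

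*RPL16A* had log2 ratios of -4.33 and -4.25 in wild type compared with -3.08 and -3.38 in *ptc6* cells. *RPL30* had -3.76 and -3.66 in wild type compared with -3.14 and -2.94 in *ptc6* cells, a difference of 0.67 (0.52 to 0.82 over the 4 pairs). Both genes had separated values, and the loss of *RPL16A* was the larger on every pair of arrays. At the low end, *RPL29* had -2.80 and -3.36 against -2.94 and -2.98, and *RPS20* had -2.76 and -2.46 against -2.98 and -2.55, with overlapping values in both. Many ribosomal protein genes have a near-identical second copy, and spotted PCR products cannot separate such copies. *RPL37A* has a YL identifier and is not reported.

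At matched repression in wild type cells, ribosomal protein and assembly ORFs still stood apart. This comparison was chosen after the values were seen. For ORFs with a wild type log2 ratio between -4 and -3, the median difference was 0.56 in 62 ribosomal protein ORFs (quartiles 0.42 and 0.68) and 1.26 in 23 assembly ORFs (0.94 and 1.51). In 20 ORFs of no ribosome, nitrogen, stress or amino acid list it was 0.93. Below -4 the medians were 0.82 (n = 21), 1.79 (n = 17) and 1.51 (n = 10). Between -3 and -2 they were 0.35 (n = 16), 0.82 (n = 23) and 0.59 (n = 78). Ribosomal proteins therefore had the lowest and assembly factors the highest median in these 3 ranges. Between -2 and -1 the 29 assembly ORFs had 0.33, below the 0.39 of 198 other ORFs.

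**Figure D3:**
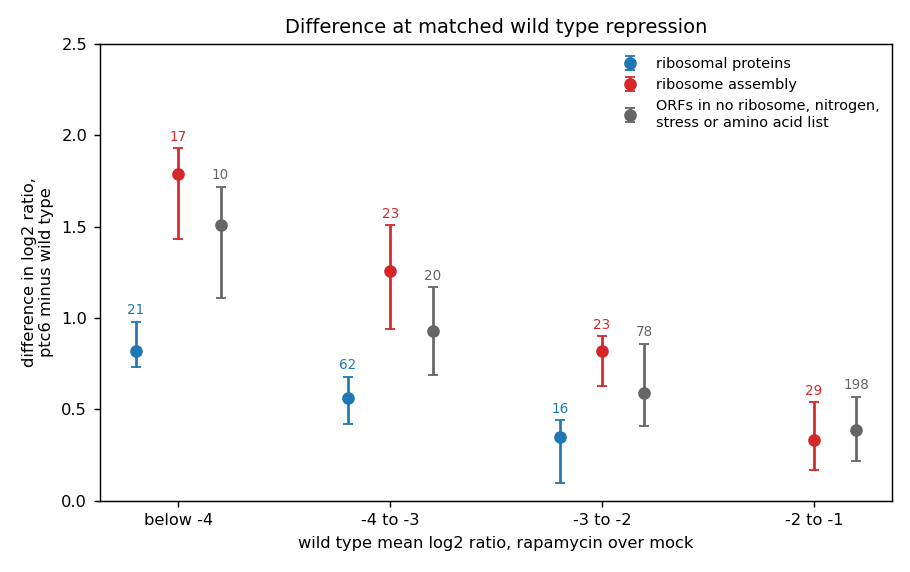
Difference in log2 ratio (*ptc6* minus wild type) for ORFs grouped by their wild type mean log2 ratio. Points are medians, bars the lower and upper quartiles, and numbers the count of ORFs; groups under 10 ORFs are not drawn. Assembly ORFs lie above ribosomal protein ORFs wherever both are drawn. The group labelled as in no ribosome list does include RNA exosome, RNA polymerase and translation ORFs.

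Other lists of protein synthesis genes had positive median differences too. Of 40 translation factor ORFs, 27 had separated values above wild type (67.5%) and none below, with a median difference of 0.43. That share was 29.2% in all ORFs and 77.3% in all repressed ORFs. The 32 translation factors repressed in wild type cells retained a median share of 0.753, close to the 0.755 of all repressed ORFs. Of these 32, 15 retained 0.75 or less, compared with 48.3% of all repressed ORFs. *FUN12*, the initiation factor eIF5B, had -2.10 and -2.27 in wild type compared with -1.05 and -1.20 in *ptc6* cells. *CAM1*, a translation elongation factor subunit, was the lowest of this list, at -0.11 and 0.07 against -0.28 and 0.02. The 18 cytosolic tRNA synthetases had a median difference of 0.47, led by the glutamine enzyme *GLN4* at -2.13 and -2.22 against -1.39 and -1.41. *SSB2*, an Hsp70 bound to ribosomes, moved from -4.04 and -3.86 to -2.93 and -2.81, while *EGD1*, of the nascent chain complex, stayed at -1.23 and -1.18 against -1.40 and -1.29. The 41 mitochondrial ribosomal protein ORFs had a median difference of only 0.13.

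Nucleotide synthesis lost repression too. *URA1*, the dihydroorotate dehydrogenase of pyrimidine synthesis, had log2 ratios of -4.67 and -5.33 in wild type compared with -2.95 and -2.58 in *ptc6* cells. *URA7*, the CTP synthase, had -5.53 and -5.81 against -4.10 and -4.10, and its minor paralog *URA8* was induced in wild type cells at 1.19 and 1.55 and stood at 0.93 and 1.14 in *ptc6* cells. *URA7* and *URA8* thus kept opposite directions of response in both strains. Of 15 ORFs in this list that wild type cells repressed, 14 retained 0.75 or less, compared with 48.3% of all repressed ORFs. Their median retained share was 0.602, against 0.755 for all repressed ORFs. The 5 that wild type cells induced retained a median share of 0.871, against 0.811 for all induced ORFs.

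**Figure D4:**
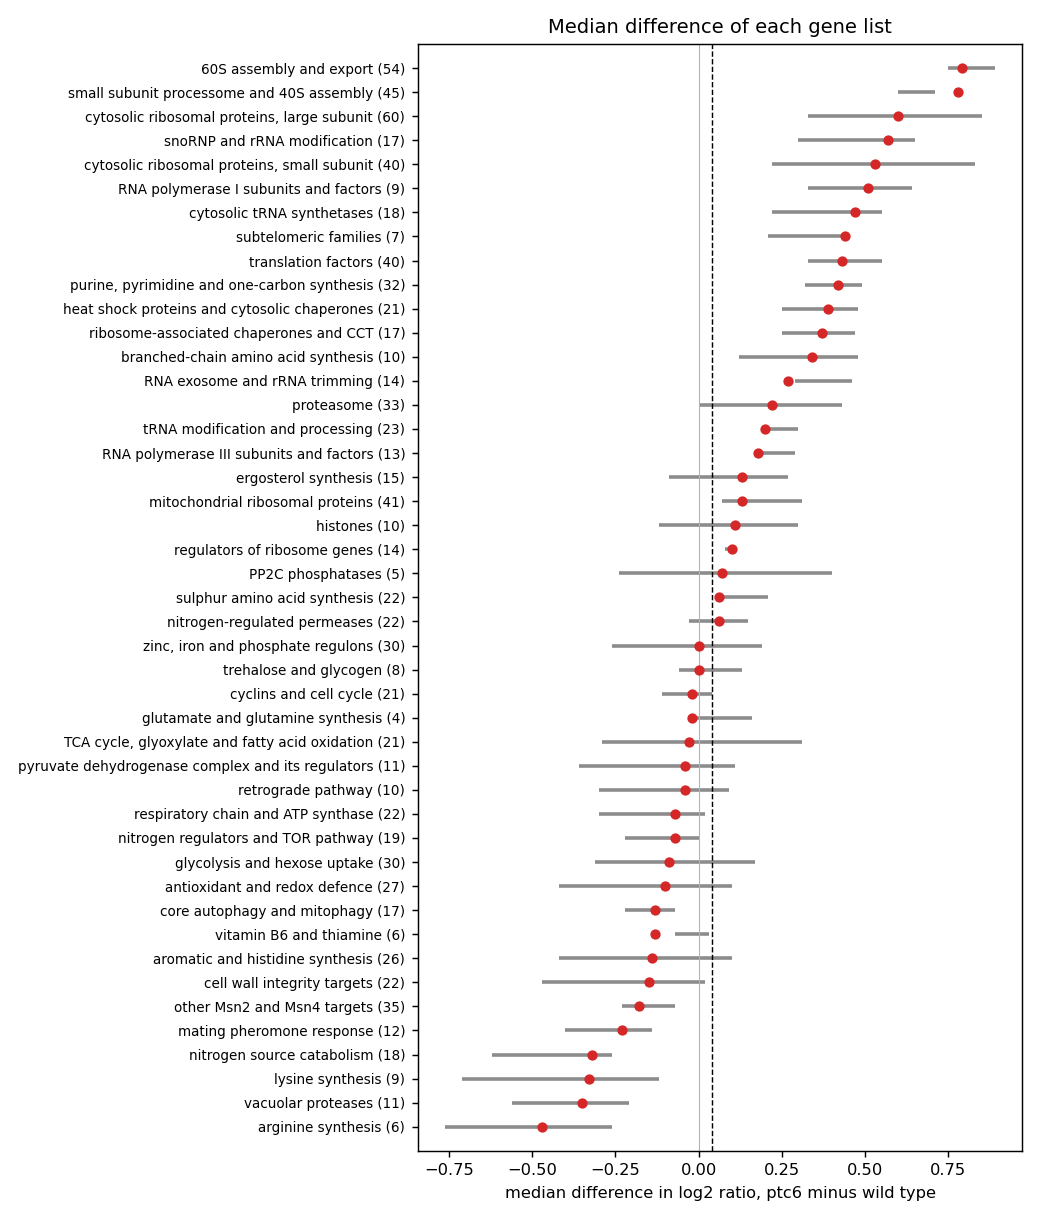
Median difference in log2 ratio (*ptc6* minus wild type) over the measured members of each list (points, number of members in parentheses). Bars span the medians taken on each of the 4 pairs of single arrays and need not contain the point, the dashed line is the median of all ORFs, and the 60S assembly and small subunit processome lists lie at the top and arginine synthesis at the bottom.

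Nitrogen genes were split between permeases that wild type cells induced, permeases that they repressed, and catabolic enzymes. The general amino acid permease *GAP1* was induced to 7.21 and 7.0 in wild type compared with 6.48 and 6.91 in *ptc6* cells. The ammonium permease *MEP2* had 6.43 and 5.53 against 5.52 and 5.29, and *MEP1* had 2.89 and 2.83 against 2.83 and 2.71. All 3 kept more than 0.9 of their response, and the values of *MEP1* met at 2.83 in both strains. *DAL5*, the allantoate permease, lost the most among induced permeases, from 6.52 and 5.71 to 4.87 and 5.40. *DIP5*, the permease for acidic amino acids, was instead induced more in *ptc6* cells, at 3.90 and 3.70 compared with 2.94 and 3.03.

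Of 5 permeases that wild type cells repressed, 4 retained 0.75 or less of the response, among them *TAT1*, *MUP1* and *BAP3*. Of all repressed ORFs, 48.3% did so. *TAT1*, for valine, leucine and aromatic amino acids, had -3.03 and -3.74 in wild type compared with -1.75 and -1.67 in *ptc6* cells. *MUP1*, the methionine permease, had -2.52 and -1.93 against -0.85 and -0.70. *BAP3*, for branched-chain amino acids, had -1.48 and -1.46 against -0.37 and -0.23. *MUP1* and *BAP3* fall outside the rule for named genes and were chosen after their values were seen. None of the values of these 3 genes overlapped, and *BAP3* retained a share of only 0.204. Over all 22 permeases the median difference was 0.06, with 8 ORFs separated above (36.4%) and 7 below wild type (31.8%). Of all ORFs, 29.2% were above and 18.2% below.

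The list of nitrogen source catabolism held 5 of the 18 lowest differences but kept its induction about as the other induced ORFs did. Its members *PRB1*, *CPS1*, *APE1* and *PEP4* are also in the vacuolar protease list. *YIL165C*, annotated beside the nitrilase gene *NIT1*, had 5.58 and 4.27 in wild type compared with 3.91 and 2.27 in *ptc6* cells, and *NIT1* had 4.42 and 4.70 against 3.52 and 3.18. The difference of *YIL165C*, -1.83, was -1.18 when wild type array 1 was dropped and -1.01 when *ptc6* array 2 was. The aminopeptidase gene *APE1* had 4.82 and 4.37 against 3.38 and 3.20. In this list of 18 ORFs the median difference was -0.32, 8 were separated below wild type (44.4%) and 1 above (5.56%), and 5 were below -1. Of all ORFs 18.2% were separated below and 29.2% above, and of all induced ORFs 58.3% were below. The 1 above was *PUT2*, of proline use, at 1.12 and 0.71 against 1.22 and 1.22. *DAL3*, of allantoin use, was kept at 5.26 and 4.76 against 4.44 and 5.41. The 15 ORFs of this list that wild type cells induced retained a median share of 0.854, compared with 0.811 for all induced ORFs, and 4 of them retained 0.75 or less, compared with 30.4% of all induced ORFs.

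Among the genes of glutamate and glutamine synthesis, *GLN1* was the only one with separated values. *GLN1*, the glutamine synthetase, was induced to 1.63 and 2.16 in wild type compared with 2.32 and 2.59 in *ptc6* cells, a retained share of 1.3. *GDH1*, the glutamate dehydrogenase, had overlapping values of 2.14 and 2.51 against 2.01 and 2.40, as did its paralog *GDH3*, at 3.90 and 3.17 against 3.0 and 3.21. A response was called strengthened when it exceeded that of wild type by more than 25%, and this held for 7 ORFs, of which 5 had separated values. The count was 46 or 23 when responders were chosen on one wild type array and measured on the other, and 9 to 12 with 1 array left out. The 5 with separated values were *DIP5*, *GLN1*, *SRP40*, *UPA1*, whose product takes part in ribosome assembly and which had -1.12 and -1.24 in wild type against -1.79 and -1.93, and *YCRX06W*, an ORF with no gene name in the reference.

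Amino acid synthesis moved in both directions. All 6 arginine ORFs were induced in wild type cells and the lowest difference was -0.79, for *ORT1*, a mitochondrial ornithine carrier. *ARG4* kept its response, at 4.59 and 4.95 against 4.20 and 4.49. In lysine synthesis, 7 of 9 ORFs were separated below wild type (77.8%, against 18.2% of all ORFs), led by *LYS1* at 3.68 and 3.78 in wild type compared with 2.35 and 2.71 in *ptc6* cells. The 1 above was *LYS4*, at -1.14 and -1.23 against -0.63 and -0.93. Each ratio is taken over the mock of the same strain, so a higher mock level also lowers it. The study reports slightly raised mRNA for several lysine synthesis genes in untreated mutant cells, short of its threshold. The gene with the lowest difference in this list was among them. Mock levels were not compared between the strains here, and their share in the lysine differences was not tested.

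The leucine branch held the widest contrast. *LEU1*, the isopropylmalate isomerase, was repressed to -2.12 and -2.18 in wild type compared with only -0.75 and -0.62 in *ptc6* cells. *TMT1*, a methyltransferase of aconitate and of an intermediate of this branch, was induced to 5.11 and 5.15 in wild type compared with 3.66 and 3.54 in *ptc6* cells. Both genes moved toward 0 by about the same amount, with differences of 1.47 and -1.53, and their arrays agreed closely within each strain. In sulphur metabolism *CYS4*, the cystathionine beta-synthase, lost repression from -1.96 and -1.73 to -0.93 and -0.62, and *MET16* lost induction from 2.65 and 2.52 to 2.10 and 1.89.

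Many induced stress genes had weaker induction, while many chaperones that were not past 2-fold in wild type cells had higher ratios in *ptc6* cells. *HSP12*, a small membrane-associated heat shock protein and a classic target of the stress factors Msn2 and Msn4, was induced to 3.99 and 3.64 in wild type compared with 2.38 and 2.40 in *ptc6* cells. *AMS1*, the vacuolar mannosidase, had 4.02 and 3.23 against 2.70 and 1.63. *TSA2*, a thioredoxin peroxidase, had 3.91 and 4.33 against 2.52 and 2.71. All 3 had separated values, and the difference of *AMS1*, -1.46, was -0.92 without *ptc6* array 2. In a list of 35 Msn2 and Msn4 targets, which includes *HSP12* and *AMS1*, 17 were separated below wild type (48.6%) and 4 above (11.4%), with a median difference of -0.18. Of all ORFs, 18.2% were below and 29.2% above, and of all induced ORFs 58.3% were below. The 27 antioxidant ORFs had a median of -0.10 (0.05 without wild type array 2), with 8 below and 4 above, and *MXR1*, a methionine sulfoxide reductase, lost repression from -1.28 and -1.70 to -0.12 and -0.77.

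At matched induction, stress ORFs lay below nitrogen ORFs, in a comparison chosen after the values were seen. For ORFs with a wild type log2 ratio between 2 and 3, the median difference was -0.55 in 12 stress ORFs and -0.29 in 13 nitrogen ORFs. It was -0.48 in 46 other ORFs, those outside the same lists as in the comparison of repressed ORFs. Between 3 and 4 the medians were -0.97 (n = 7), -0.32 (n = 5) and -0.68 (n = 11). Between 1 and 2 they lay closer together, at -0.19 (n = 18), -0.13 (n = 11) and -0.25 (n = 226), and there the other ORFs had the lowest median. The medians between 3 and 4 depended on the array. Binned on wild type array 1 and measured against array 2, they were -0.52 for stress, -0.23 for nitrogen and -0.42 for the other ORFs, and in the reverse case -1.46 (n = 4), -0.29 and -0.69.

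Chaperones as a list went the other way, but those that wild type cells induced did not. Of 21 ORFs in the heat shock list, 13 were separated above wild type (61.9%, against 29.2% of all ORFs) and 3 below (14.3%), with a median difference of 0.39. The 3 below were *HSP12*, *HSP26* and *HSP31*, which were all induced past 2-fold in wild type cells. *HSP30*, a plasma membrane protein induced by heat, was repressed to -1.61 and -1.67 in wild type cells and stood at -0.38 and -0.07 in *ptc6* cells, a retained share of 0.137. *SSA4*, the stress-inducible cytosolic Hsp70, had 1.66 and 0.24 in wild type compared with 2.38 and 1.89 in *ptc6* cells. Its wild type arrays disagreed, and the difference of 1.18 was 0.47 with only array 1 of wild type and 1.89 with only array 2.

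Other members of the heat shock list with separated values had smaller differences. The 3 given here are outside the rule for named genes and were chosen after their values were seen. *SSA1*, a cytosolic Hsp70, had -0.53 and -0.59 in wild type compared with -0.12 and 0.10 in *ptc6* cells. *SSE1*, its nucleotide exchange factor, had -0.71 and -0.77 against -0.10 and -0.17. *STI1*, the co-chaperone of Hsp70 and Hsp90, had -0.52 and -0.49 against -0.08 and 0.17. None of these genes was past 2-fold in either strain. A related list, the proteasome, had 15 of 33 ORFs separated above wild type (45.5%, against 29.2% of all ORFs) and none below, with a median difference of 0.22 and a highest difference of 0.65 for *PRE2*.

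**Figure D5:**
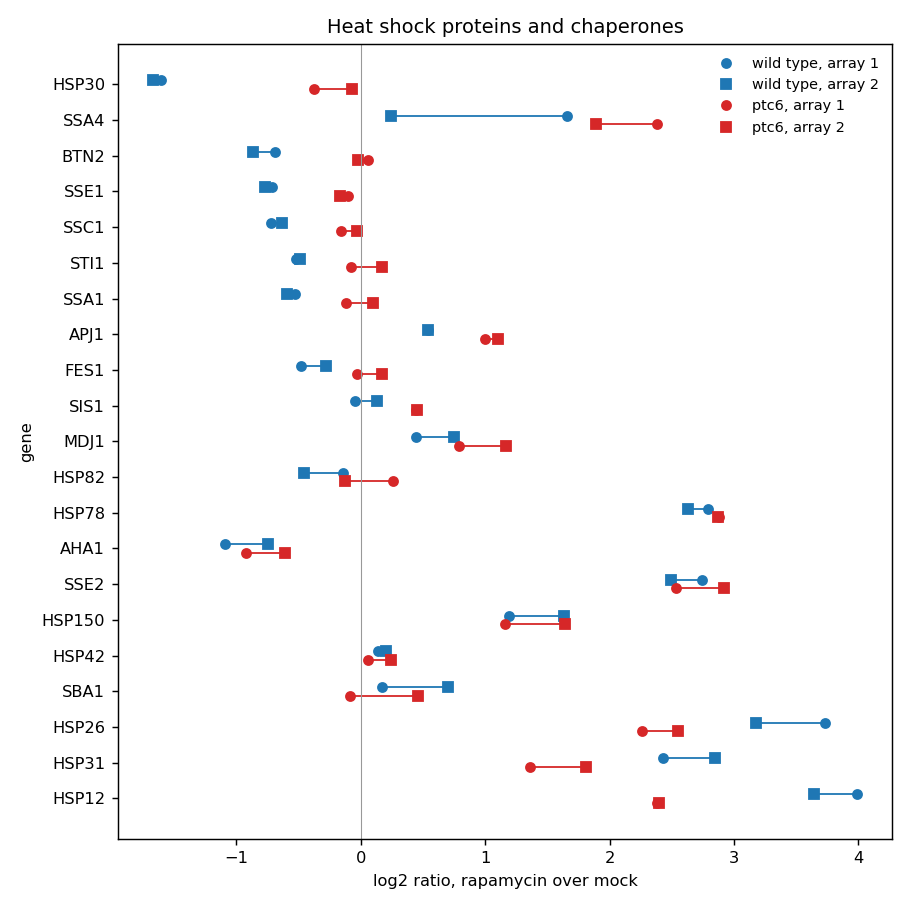
Log2 ratio (rapamycin over mock) on each array for the 21 ORFs of the heat shock list, ordered by the difference; blue is wild type, red is *ptc6*, circles are array 1 and squares array 2. The *ptc6* values lie to the right of wild type from *HSP30* down to *HSP78* and to the left for *HSP26*, *HSP31* and *HSP12*.

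In several further lists more members were separated below wild type than above, where 18.2% of all ORFs and 58.3% of all induced ORFs were below. In the mating pheromone list, 8 of 12 ORFs were below (66.7%), although only 4 were induced past 2-fold in wild type cells. *MFA2*, which encodes the a-factor pheromone, had 0.86 and 0.85 in wild type compared with -0.25 and 0.04 in *ptc6* cells. *STE2*, the receptor for alpha-factor, had 1.01 and 1.04 against 0.54 and 0.41. In 11 vacuolar protease ORFs the median difference was -0.35, with 6 separated below (54.5%) and none above, and the 9 induced ORFs retained a median share of 0.816, close to the 0.811 of all induced ORFs. In 22 cell wall integrity targets, whose 12 induced ORFs retained 0.81, 9 were separated below (40.9%) and 1 above, led by *PRM5*, a membrane protein, at 2.81 and 2.75 against 1.72 and 1.76. Of 17 autophagy ORFs 6 were below (35.3%) and none above, the 8 induced ones retained 0.779, and *ATG34*, a selective autophagy receptor, was lowest at 2.70 and 2.25 against 1.67 and 1.96.

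A few of the lowest differences belonged to genes of other functions. *COS4*, of a subtelomeric family, had 8.36 and 5.44 in wild type compared with 5.36 and 4.96 in *ptc6* cells, and without wild type array 1 its difference of -1.74 shrank to -0.28. *HOS4*, of the Set3 deacetylase complex, had 4.95 and 4.96 against 3.76 and 3.73. *YJR154W*, of unknown function, had 4.21 and 4.12 against 3.01 and 2.49. *MAM33*, which encodes a mitochondrial matrix protein, had the highest difference of all, 2.63, but this rests on 1 array. Its values were -5.16 and -0.41 in wild type compared with -0.19 and -0.12 in *ptc6* cells, and without wild type array 1 the difference was 0.26.

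Responses that were close to lost were few. Of 520 repressed ORFs, 39 retained 0.5 or less, 212 retained more than 0.5 and up to 0.75, and 266 were kept, between this and a response 25% above that of wild type. Of 398 induced ORFs these counts were 7, 114 and 273. With 1 array left out, 51 to 64 repressed and 11 to 26 induced ORFs retained 0.5 or less. Values were then required on the remaining arrays only, so these counts are not limited to the same 520 and 398 ORFs. All 7 strongly weakened induced ORFs had differences under 1 log2 unit, while 18 of the 39 repressed ones exceeded it. *PCL7*, a cyclin of the Pho85 kinase, retained a share of 0.0571, with -1.23 and -0.87 in wild type compared with -0.08 and -0.04 in *ptc6* cells. *MSH6*, of DNA mismatch repair and named after its values were seen, retained 0.178, with -1.14 and -1.44 against -0.18 and -0.28. The largest difference among the 7 induced ORFs was that of *FUS1*, of cell fusion in mating and also named after its values were seen, at 1.70 and 1.72 against 0.70 and 0.98.

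Kept responses were spread over both directions. Among ORFs retaining more than 0.9 and up to 1.1, the most induced were *GAP1*, *MEP2*, *DAL3*, *ARG4* and *GPG1*, of a G protein complex, which had 4.86 and 4.27 in wild type compared with 4.36 and 4.39 in *ptc6* cells. Among the most repressed were *RKI1*, the ribose phosphate isomerase, at -4.79 and -3.64 against -3.79 and -4.22, and the small subunit proteins *RPS2*, *RPS15* and *RPS24B*. *RPS2* had -3.83 and -3.46 against -3.51 and -3.08. The values of *RPS24B* were separated, at -3.62 and -3.51 against -3.24 and -3.21, and those of *RKI1*, *RPS2* and *RPS15* overlapped.

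Changes found only in *ptc6* cells were rare and mostly small. In *ptc6* cells alone 17 ORFs were induced past 2-fold (0.604%) and 13 were repressed past 2-fold (0.462%). Of the 17, 16 already had a wild type mean above 0.5, and all 13 had one below -0.5. With 1 array left out, the counts were 22 to 45 and 8 to 38. The 4 values were separated in 13 of the induced and 5 of the repressed ORFs. Only *SSA4* and *MET6* had separated values and a difference past 1.5-fold. *MET6*, the methionine synthase, had 0.41 and 0.21 in wild type compared with 1.01 and 1.30 in *ptc6* cells.

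With a stricter rule, past 2-fold on both *ptc6* arrays and on neither wild type array, 7 induced ORFs and 1 repressed ORF were left. The induced ones were *MET6*, *YRO2*, *FAB1*, *HXK1*, *TPO2*, *PKP1* and *SYC1*, and the repressed one was *BBP1*, of the spindle pole body. *HXK1*, a hexokinase, had 0.86 and 0.75 in wild type compared with 1.30 and 1.47 in *ptc6* cells. *PKP1*, a kinase of pyruvate dehydrogenase, had 0.96 and 0.82 against 1.01 and 1.17. Apart from *MET6* and *PKP1*, these genes were named after their values were seen. A further 81 ORFs had values on both *ptc6* arrays and on no wild type array, and 6 of them were past 2-fold. Conversely 38 had values on both wild type arrays only, and 18 of these were past 2-fold, so that they could not be compared.

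Genes of the complex that Ptc6 is known to act on differed little between the strains. In the list of the pyruvate dehydrogenase complex, its regulators and related enzymes, 9 of 11 ORFs had overlapping values and the median difference was -0.04. *PDA1*, the subunit that Ptc6 dephosphorylates, had 0.41 and 0.75 in wild type compared with 0.34 and 0.62 in *ptc6* cells. *PDB1*, *LAT1*, *LPD1* and *PDX1*, the other structural genes, had differences between -0.25 and 0.21, and all had overlapping values. *PKP2*, a kinase of this complex, was induced to 2.32 and 2.90 in wild type compared with 2.15 and 2.03 in *ptc6* cells, without overlap. The mitochondrial pyruvate carrier genes *MPC2* and *MPC3* had differences of -0.13 and -0.01, with *MPC3* repressed at -2.22 and -1.81 against -2.0 and -2.05, and the pyruvate decarboxylase gene *PDC6* had 0.27 with overlap.

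Other mitochondrial genes were mixed. Of all ORFs, 18.2% were separated below wild type and 29.2% above. In the respiratory chain and ATP synthase list, 9 of 22 ORFs were separated below (40.9%) and 4 above (18.2%). The median difference of this list was -0.07, which was 0.07 without *ptc6* array 1. Its 8 induced ORFs retained a median share of 0.752, compared with 0.811 for all induced ORFs. Of these 8, 4 retained 0.75 or less, compared with 30.4% of all induced ORFs. The extremes were *COX5B*, a subunit of cytochrome oxidase, with a difference of -0.73, and *COR1*, of the cytochrome bc1 complex, with 0.34. In the list of the TCA cycle, glyoxylate cycle and fatty acid oxidation, 7 of 21 were below (33.3%) and 4 above (19%). There *IDP1*, the mitochondrial isocitrate dehydrogenase that uses NADP, was lowest at -0.72, and *MDH2*, the cytosolic malate dehydrogenase, was highest at 0.71.

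The other PP2C phosphatases showed no response past 2-fold. *PTC2*, *PTC3*, *PTC5* and *PTC7* had overlapping values, with differences from 0.03 to 0.10. *PTC4* had -1.03 and -0.73 in wild type compared with -0.48 and -0.09 in *ptc6* cells, a difference of 0.59.

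The *ptc1 ptc6* arrays had the dyes in the opposite orientation to the other strains and are set beside them without a comparison. Median log2 ratios of the large subunit protein ORFs were -3.61 in wild type, -3.04 in *ptc6* and -3.62 in *ptc1 ptc6* cells. For the 60S assembly list they were -2.38, -1.57 and -1.96, with the last over 52 ORFs. For the heat shock list they were 0.17, 0.18 and 0.63. *RPF2* had -3.84 and -3.39 in *ptc1 ptc6* cells, *BRX1* had -6.01 and -4.82, *HSP12* had 1.21 and 1.23, and *HSP30* had 0.67 and 0.29.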

How the data were processed

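Wild type BY4741 and *ptc6* cells were each measured on 2 two-colour arrays of PCR-amplified ORFs. The authors filtered out small spots (below 120 µm) and dim ones (below 150 units of fluorescence), preprocessed the scans with GEPAS, and deposited log2 ratios of rapamycin over mock, 1 per ORF and array. The normalization method is not given in the sources used here. The cultures are described at different optical densities in the sample descriptions and in the methods. Signal over background is unknown because spot intensities were not analysed here, and spotted PCR products separate neither strands nor near-identical genes.

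The deposited log2 ratios were used without further normalization. Values on both arrays of both strains were required, and the mean over the 2 arrays was taken for each strain. ORF identifiers starting with YL or YM were left out because their rows are displaced in the deposited table. No test was made, since each strain counts as 1 biological replicate. The spread is the range over the 4 possible pairings of single arrays from the 2 strains, and values are called separated when both *ptc6* values lie on the same side of both wild type values. The retained share is the *ptc6* over the wild type mean log2 ratio. Of 2813 ORF identifiers, 2687 matched the R64 annotation, which was used for gene names only. No coordinates or sequences are given.

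The members, the 45 gene lists and the comparisons were chosen with earlier results of these data known. Genes named are those the study followed by other assays, the 10 highest and 10 lowest differences with separated values, those changed only in *ptc6* cells with separated values and a difference past 1.5-fold, the 5 largest kept responses in each direction with a retained share above 0.9 and up to 1.1, up to 10 strengthened responses, the extremes of each list, and the pyruvate dehydrogenase and PP2C lists. Genes beyond this rule were named after their values were seen. Some genes that the rule names are not reported here. The alternatives were arrays centred on their median, the log2 of the mean linear ratio, a value on at least 1 array, YL and YM kept, a 1.5-fold limit, responders past 2-fold on both wild type arrays, responders chosen on one wild type array and measured on the other, both arrays required for changes only in *ptc6* cells, and each array left out in turn. With an array left out, values were required on the remaining arrays only, so further ORFs could enter those counts and medians. The steps were tested on simulated data. Python 3.11.15, numpy 2.4.6, pandas 2.3.3 and matplotlib 3.10.9 were used.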

Additional observations from a re-analysis of the deposited data

Results flagged for a closer look

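In 11 ORFs both wild type arrays lay on one side of 0, both *ptc6* arrays on the other, and the difference was past 1.5-fold. None of these differences was tested. *ARN1*, a siderophore transporter of iron uptake, was the only one that went from induction to repression, with 0.56 and 0.76 in wild type compared with -0.52 and -0.25 in *ptc6* cells and a difference of -1.04. The other 10 went from slight repression to slight induction. *CHO2*, of phosphatidylcholine synthesis, had the largest difference of these, 0.99, with -0.55 and -0.81 in wild type compared with 0.45 and 0.16 in *ptc6* cells. *YDR222W*, which has no gene name in the files' reference, followed with 0.86. *LCB2*, of sphingolipid synthesis, had 0.59, and *RSP5*, the ubiquitin ligase of permease endocytosis, had 0.61. *VPS25*, of endosomal sorting, had 0.63, and *DDI1*, which acts on ubiquitinated proteins, had 0.59. *EFM3*, a methyltransferase of an elongation factor, had 0.68, *CRP1*, which binds cruciform DNA, had 0.66, and *YHR138C* had 0.64. *YAL004W*, which had 0.61, lies opposite the Hsp70 gene *SSA1* on the other strand, and double-stranded spots do not separate strands.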

How the results depend on the processing

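No paired analysis was possible because the difference comes from no test; arrays were set side by side by dye orientation only. Under the alternatives run, 13 list medians of 0.13 or less in size changed sign, among them those of the nitrogen permeases, antioxidant, respiratory and pyruvate dehydrogenase lists, as did 28 named ORFs, none with a reported difference above 0.64 in size. In all, 58 of 84 recalculated counts stayed within 1.5 times the reported one. Of 319 list medians, 282 stayed within a limit that was narrower than the range over the 4 pairs of arrays. Centring each array gave 20 ORFs repressed only in *ptc6* cells in place of 13. Requiring a value on at least 1 array per strain gave 31 ORFs lower in *ptc6* cells in place of 18. A 1.5-fold limit gave 270 higher and 81 lower ORFs, with 56 induced and 57 repressed only in *ptc6* cells. Past 2-fold on both *ptc6* arrays and on neither wild type array were 7 and 1. Strongly weakened induced ORFs numbered 4 when both wild type arrays had to be past 2-fold and 11 when chosen on array 1 and measured on array 2. Strengthened ORFs numbered 46 under the latter choice and 23 under its reverse, in place of 7. Keeping YL and YM identifiers gave a small subunit processome median of 0.53 in place of 0.78. Binning on one wild type array and measuring on the other, chosen after seeing the data, gave 0.40 and 0.72 for ribosomal proteins between -4 and -3 and 1.08 and 1.22 for assembly ORFs.

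Leaving out each array in turn gave 73 to 105 ORFs higher and 22 to 35 lower in *ptc6* cells, 22 to 45 induced only and 8 to 38 repressed only in *ptc6* cells, and 9 to 12 strengthened responses. Strongly weakened responses ranged from 11 to 26 among induced and from 51 to 64 among repressed ORFs. The processome median ranged from 0.66 to 0.77 and the 60S assembly median from 0.72 to 0.81. Of 35 named ORFs with a difference past 2-fold, 5 moved by more than 1.5 times when 1 array was left out, namely *YIL165C*, *COS4*, *AMS1*, *MAM33* and *SSA4*.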
